A study of Mus musculus with 50 samples.

Results

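Of the 40829 H3K27ac peaks listed for *Ezh2* Y726D embryonic stem cells (ESCs), 9527 (23.3%) overlapped no H3K27ac peak of the other mutant lines of this series and no SUZ12 peak of wild-type (WT) cells. These 9527 regions, called *Ezh2* Y726D-only peaks here, were selected by their position in the deposited peak lists, with a shared base (1 bp) counting as an overlap. The other H3K27ac lists were those of *Ezh2* KO (25483 peaks), *Ezh1/2* dKO (17618) and *Ezh2* R685C (41185) cells. The overlaps that follow are not corrected for these unequal lengths. In the steps of the rule, 19603 of the *Ezh2* Y726D peaks (48.0%) overlapped a peak of *Ezh2* KO, 13599 (33.3%) one of *Ezh1/2* dKO and 28261 (69.2%) one of *Ezh2* R685C. In no other list were 10604 peaks found, and 1077 of those lay on a WT SUZ12 peak and were left out. Whether these regions carried H3K27ac in WT cells was not analysed here, so "only" is relative to the 3 other mutant lines.

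The study made mouse ESC lines from the E14TG2a line with CRISPR/Cas9, grown in serum with LIF and 2 inhibitors, to separate the enzyme activity of PRC2 from its presence on chromatin. *Ezh2* KO cells lack *Ezh2*, and *Ezh1/2* dKO cells lack both *Ezh1* and *Ezh2*. *Ezh2* Y726D and *Ezh2* R685C cells carry point mutations in the endogenous *Ezh2* gene, introduced by oligonucleotide repair, in cells that also lack *Ezh1*, so these lines and *Ezh1/2* dKO share the *Ezh1* deletion. Peak lists of ChIP-seq and ATAC-seq (accessible chromatin) and normalized counts of RNA-seq were used. The SUZ12 and H3K27me3 samples labelled Ezh2Y726D, without mention of *Ezh1*, were taken as the same *Ezh2* Y726D line. Each ChIP-seq and ATAC-seq list came from 1 library, and the sources used here name 1 line per genotype, so the effects of genotype and clone cannot be told apart.

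PRC2 is the complex that methylates lysine 27 of histone H3. Its catalytic subunit is EZH2 or the paralog EZH1, and SUZ12 is a core subunit used to locate the complex. H3K27me3 marks the CpG-rich promoters that PRC2 binds stably, H3K27me2 covers broad intergenic and silent genic regions, and H3K27me1 lies over transcribed genes. Acetylation of the same lysine by the acetyltransferases CBP and p300 marks active promoters and enhancers. A lysine cannot be acetylated and methylated at the same time.

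The 6 windows below are 300 bases centred on summits of *Ezh2* Y726D-only peaks, read from the mm9 genome. They are the 3 peaks with the smallest p and the 3 strongest of the remaining promoter peaks among the 10 strongest, and they are shown so that the base composition described next can be seen. Capitals mark CpG dinucleotides, the site of DNA methylation and the hallmark of the CpG islands that PRC2 binds.
*Gm10787*, chr10:76470943-76471242, plus strand: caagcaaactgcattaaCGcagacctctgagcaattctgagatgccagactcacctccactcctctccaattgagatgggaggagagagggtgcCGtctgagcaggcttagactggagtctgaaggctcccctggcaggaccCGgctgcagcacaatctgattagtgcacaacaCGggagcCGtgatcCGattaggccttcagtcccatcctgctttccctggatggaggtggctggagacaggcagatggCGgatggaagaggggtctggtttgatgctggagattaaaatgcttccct
*Pvrl1*, chr9:43668841-43669140, plus strand: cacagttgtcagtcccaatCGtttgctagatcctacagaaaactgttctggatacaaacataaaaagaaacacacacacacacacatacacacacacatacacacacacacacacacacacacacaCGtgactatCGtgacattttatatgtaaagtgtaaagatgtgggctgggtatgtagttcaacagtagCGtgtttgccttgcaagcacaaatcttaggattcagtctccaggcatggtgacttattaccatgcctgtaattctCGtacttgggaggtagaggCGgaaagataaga
*Camk2b*, chr11:5966752-5967051, plus strand: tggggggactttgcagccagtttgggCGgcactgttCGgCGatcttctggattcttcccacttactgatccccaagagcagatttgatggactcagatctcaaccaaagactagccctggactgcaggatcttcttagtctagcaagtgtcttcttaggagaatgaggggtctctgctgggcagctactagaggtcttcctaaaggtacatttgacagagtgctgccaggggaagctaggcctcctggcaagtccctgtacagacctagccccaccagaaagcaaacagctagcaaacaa
*Setd1b*, chr5:123593189-123593488, plus strand: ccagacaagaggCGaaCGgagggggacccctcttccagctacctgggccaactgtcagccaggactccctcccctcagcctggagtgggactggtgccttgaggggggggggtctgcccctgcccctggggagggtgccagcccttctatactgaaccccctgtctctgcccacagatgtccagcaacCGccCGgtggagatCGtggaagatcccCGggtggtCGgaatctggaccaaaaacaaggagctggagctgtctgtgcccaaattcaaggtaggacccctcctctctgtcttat
*Kirrel2*, chr7:31240452-31240751, plus strand: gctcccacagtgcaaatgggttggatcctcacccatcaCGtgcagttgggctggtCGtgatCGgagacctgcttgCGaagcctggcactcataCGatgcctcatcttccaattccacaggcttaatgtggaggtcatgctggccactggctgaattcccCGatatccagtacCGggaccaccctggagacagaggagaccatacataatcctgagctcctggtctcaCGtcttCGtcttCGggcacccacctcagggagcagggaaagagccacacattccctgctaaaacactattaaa
*R3hdml*, chr2:163318197-163318496, plus strand: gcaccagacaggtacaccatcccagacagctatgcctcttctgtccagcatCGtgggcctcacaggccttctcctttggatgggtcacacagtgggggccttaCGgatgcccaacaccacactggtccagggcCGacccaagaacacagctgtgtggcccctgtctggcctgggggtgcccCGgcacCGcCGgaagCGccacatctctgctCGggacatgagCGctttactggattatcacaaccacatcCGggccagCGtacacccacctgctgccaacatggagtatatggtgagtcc
The windows hold 7, 6, 3, 7, 10 and 11 CpG dinucleotides, in the order given.

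CpG was scarcer at *Ezh2* Y726D-only peaks than at peaks on WT SUZ12. Most of the windows shown hold more CpG than the median given next. Over all 9527 summit windows of 300 bases the median was 5 CpG, against 22 at the 1681 *Ezh2* Y726D H3K27ac peaks on WT SUZ12, 5 over the whole *Ezh2* Y726D list and 3 at the 15217 H3K27ac peaks found by the same rule only in *Ezh2* R685C. The ratio of observed to expected CpG reached 0.6 in 7.73% of the *Ezh2* Y726D-only windows and in 73.7% of the windows on WT SUZ12. It did so in 20.4% over the whole list and 5.80% of *Ezh2* R685C-only windows. At peaks common to the 4 mutant lines and off WT SUZ12 the share was 32.5%. Median GC content was 51.7% at *Ezh2* Y726D-only peaks, 64.3% on WT SUZ12 and 46.7% at *Ezh2* R685C-only peaks. The *Ezh2* Y726D-only peaks were thus closer in base composition to the whole list than to the SUZ12-bound sites that the rule left out. In the CpG ratio they were closest to the *Ezh2* R685C-only peaks.

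Short strings known from the sites of transcription factor families were counted in the same windows on both strands. The share of *Ezh2* Y726D-only windows that held a string stayed within 2 percentage points of the share over all 40829 windows of the list for each of the 10 strings searched. Windows with the SOX string CATTGT made up 11.8% of *Ezh2* Y726D-only peaks and 11% of all peaks, and those with the GATA string AGATAA 10.2% and 10.3%. The AP-1 string TGANTCA was in 9.22% and 8.09%, the TEAD string GGAATG in 15.9% and 15.4%, the KLF string GGGNGTGG in 11.8% and 11.51%, the ESRRB string AAGGTCA in 6.55% and 6.15% and the CTCF core string CCACNAG in 17.4% and 16.9%. The CpG-containing ETS string CCGGAAG was in 2.52% and 3.73%, that of NRF1 in 0.357% and 0.703%, and the octamer ATGCAAAT in 0.871% and 0.909%. No string holds another whole, though the KLF string read on the opposite strand shares CCAC with the CTCF core. Against the *Ezh2* R685C-only windows, the *Ezh2* Y726D-only windows held the GATA, SOX and octamer strings in smaller shares (15.3%, 14.7% and 1.67% in *Ezh2* R685C-only), beside the difference in GC content given above.

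Most *Ezh2* Y726D-only peaks were weak members of their list. Their -log10 p, the peak caller's measure of strength, ran from 10.001 to 42.8 with a median of 12.2, and their median fold enrichment was 5.51. The median over the whole list was 15.2, and over the 11024 peaks common to the 4 mutant lines and off WT SUZ12 it was 27.5. *Ezh2* R685C-only peaks had a median of 12.6. *Ezh2* Y726D-only peaks were also narrow, with a median width of 407 bp, against 616 bp over the list and 1138 bp at common peaks. At a p of at most 1e-20, 386 *Ezh2* Y726D-only peaks (4.05%) were listed. These values come from the lists that chose the regions and only describe them. The sources used here do not give the depth of the lists, and a deeper library yields a longer list.

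At the edge of the rule, the nearest *Ezh2* Y726D-only peak lay 1 bp from a peak of another line. Such regions within 10 bp numbered 17, with a median -log10 p of 12.8, and 18 shared peaks were overlapped by at most 10 bp, with a median of 11.7. Many of the regions were neighbours of acetylation that other lines had. A peak of another mutant line lay within 1 kb of 27.7% of *Ezh2* Y726D-only peaks and within 5 kb of 48.1%, and the median distance was 5767 bp.

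In WT cells, the *Ezh2* Y726D-only peaks lay mainly in H3K27me2 territory. WT H3K27me2 regions, which cover 14.2% of the bases of the chromosomes listed, overlapped 70.7% of *Ezh2* Y726D-only peaks (6444 of 9118, Wilson 95% interval 69.7 to 71.6%; chromosomes 8 and Y have no entry in this list). The intervals given for shares cover counting error only. The same WT regions overlapped 38.0% of *Ezh2* R685C-only peaks, 45.5% of the whole *Ezh2* Y726D list and 32.5% of the common peaks. With 1 library a list, these differences have no replicate check.

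WT H3K27me1 gave another picture. It overlapped 24.5% of *Ezh2* Y726D-only peaks (2338, interval 23.7 to 25.4%), 68.0% of *Ezh2* R685C-only peaks, 38.8% of the whole list and 44.8% of common peaks, with 14.7% of bases covered. Read at the summit, a single base whatever the width of the peak, 61.2% of *Ezh2* Y726D-only and 27.9% of *Ezh2* R685C-only summits were inside WT H3K27me2, and 18.3% and 56.7% were inside WT H3K27me1. Crossing the marks, 50.5% of *Ezh2* Y726D-only peaks lay on WT H3K27me2 alone, 5.06% on H3K27me1 alone, 20.1% on both and 24.3% on neither. Of *Ezh2* R685C-only peaks, 10.5% lay on H3K27me2 alone and 41.6% on H3K27me1 alone. In these lists, the peaks of *Ezh2* Y726D alone thus lay mainly on WT H3K27me2 and those of *Ezh2* R685C alone mainly on WT H3K27me1.

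**Figure D1:**
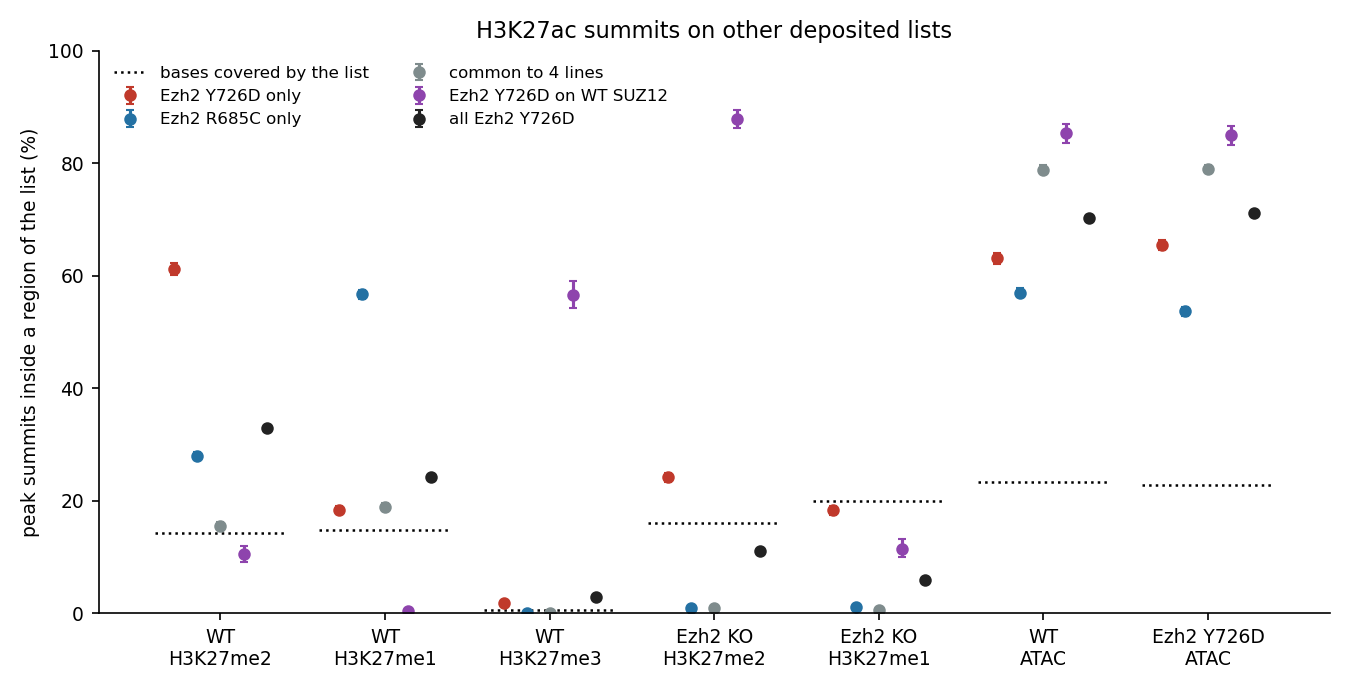
Share of H3K27ac peak summits (%) inside the regions of other deposited lists, for each class of H3K27ac peaks, with Wilson 95% intervals as bars; dotted lines give the share of bases each list covers. *Ezh2* Y726D-only summits stand at 61.2% on WT H3K27me2 and 18.3% on WT H3K27me1, and *Ezh2* R685C-only summits at 27.9% and 56.7%.

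The share on WT H3K27me2 was smaller the more of the other mutant lines had the peak. Among *Ezh2* Y726D peaks off WT SUZ12, the share of summits inside WT H3K27me2 was 61.2% for peaks in no other line, 35.3% with 1 other line, 25.8% with 2 and 15.6% with all 3. The share inside WT H3K27me1 was 18.3%, 35.8%, 28.9% and 18.8% in the same order, so that it was lowest at both ends. The same order of *Ezh2* Y726D-only and shared peaks was seen at every strength. In bins of -log10 p from 10 to 12, 12 to 15, 15 to 20 and above, 62.2%, 60.8%, 59.8% and 59.5% of *Ezh2* Y726D-only summits were inside WT H3K27me2, against 29.9%, 29.8%, 27.3% and 19.2% of summits shared with another line.

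**Figure D2:**
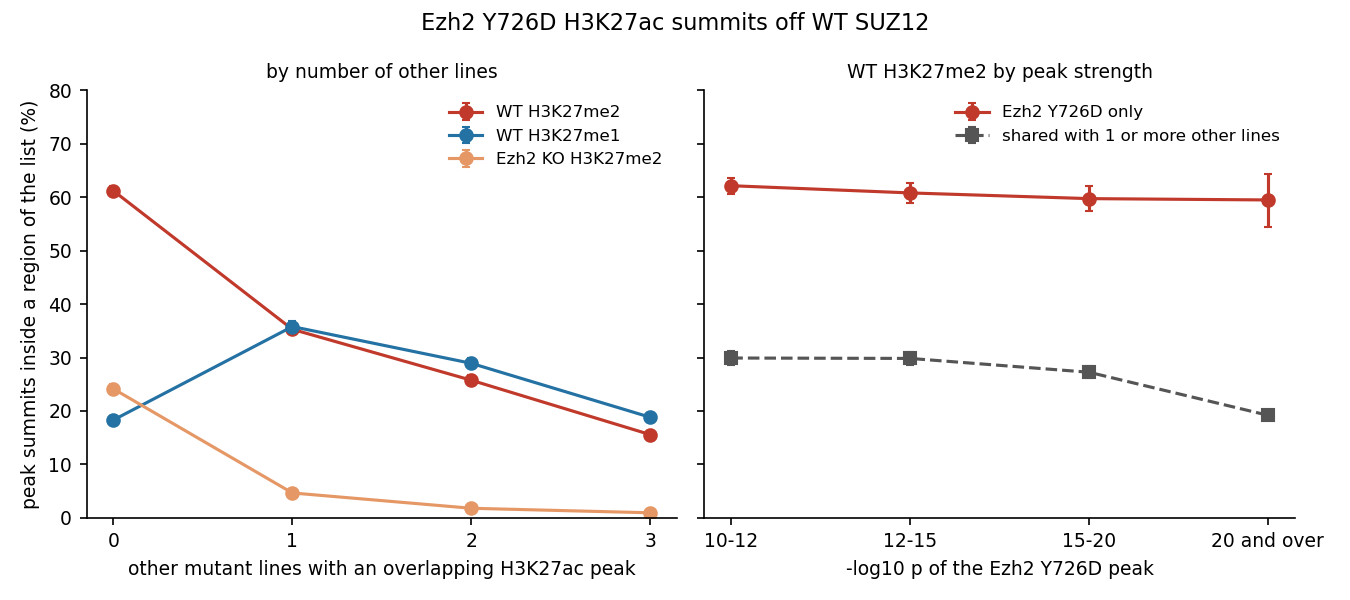
Left, share of *Ezh2* Y726D H3K27ac summits off WT SUZ12 (%) inside 3 methylation lists, by the number of other mutant lines with an overlapping H3K27ac peak; right, the share inside WT H3K27me2 by -log10 p of the peak, for *Ezh2* Y726D-only and shared peaks. Bars are Wilson 95% intervals. *Ezh2* Y726D-only summits stay between 59.5% and 62.2% in every bin of strength, above the shared summits.

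The *Ezh2* KO line, where EZH1 is the remaining enzyme, had listed methylation at some of these regions. *Ezh2* KO H3K27me2 regions overlapped 29.8% of *Ezh2* Y726D-only peaks (2842), 1.56% of *Ezh2* R685C-only peaks, 3.12% of common peaks and 14.3% of the whole list. On WT SUZ12 the share was 93.2%, and the list covers 16.1% of bases. By number of other mutant lines, 24.1%, 4.66%, 1.79% and 0.943% of summits were inside *Ezh2* KO H3K27me2. One of those other lines is *Ezh2* KO itself, so the absence of an *Ezh2* KO acetylation peak is part of the rule and of this order. *Ezh2* KO H3K27me1 overlapped 25.9% of *Ezh2* Y726D-only and 2.28% of *Ezh2* R685C-only peaks, and 10.1% of the whole list. It covers 19.9% of bases, and 18.3% of *Ezh2* Y726D-only summits were inside it, so these summits did not exceed the covered share. Among the 386 *Ezh2* Y726D-only peaks with p of at most 1e-20, 43.0% lay on *Ezh2* KO H3K27me2, and 28.0% of those with a -log10 p from 10 to 12 did. At the summit these shares were 31.1% and 23.3%.

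The H3K27me2 lists of the lines without a working enzyme covered more of the genome than the WT list and set these regions apart less. The *Ezh2* Y726D H3K27me2 list covered 23.8% of bases and overlapped 52.5% of *Ezh2* Y726D-only peaks, and the *Ezh1/2* dKO list covered 24.1% and overlapped 42.4%. These lists were called at a p of up to 0.1 and hold regions of low enrichment, and no enzyme for the mark is left in these lines, so overlaps with them are given only as listed. The same permissive calling applies to the WT and *Ezh2* KO lists of H3K27me1 and H3K27me2 and to the ATAC-seq lists.

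Polycomb peaks were rare at *Ezh2* Y726D-only peaks, as the rule requires for WT SUZ12. Peaks of H3K27me3 in WT were still more frequent there than at common or *Ezh2* R685C-only peaks. A WT H3K27me3 peak overlapped 288 of the *Ezh2* Y726D-only peaks (3.02%), with 0.548% of bases covered. It overlapped 12 *Ezh2* R685C-only peaks (0.0789%) and 26 common peaks (0.236%). The whole *Ezh2* Y726D list gave 3.78%, but 1165 of its 1545 overlaps were at peaks on WT SUZ12, which the rule left out. In *Ezh2* R685C cells, an H3K27me3 peak overlapped 591 *Ezh2* Y726D-only peaks (6.20%, beside 5.37% of the whole list). That list covers 0.746% of bases and overlapped 0.626% of common and 0.131% of *Ezh2* R685C-only peaks. In *Ezh2* KO cells, 138 were overlapped (1.45%, beside 3.07% of the whole list), while in *Ezh2* Y726D cells 3 were. The *Ezh2* KO list covers 0.528% of bases and overlapped 0.109% of common and 0.164% of *Ezh2* R685C-only peaks. By the rule, *Ezh2* Y726D-only peaks have no H3K27ac peak of *Ezh2* R685C or *Ezh2* KO. Common peaks have both, and *Ezh2* R685C-only peaks have that of *Ezh2* R685C. The rule is thus part of the differences in *Ezh2* R685C H3K27me3 from both classes and in *Ezh2* KO H3K27me3 from common peaks. SUZ12 peaks of *Ezh2* Y726D cells overlapped 51 (0.535%, beside 2.42% of the whole list) and those of *Ezh2* R685C cells 28. No SUZ12 peak of *Ezh2* KO or *Ezh1/2* dKO cells overlapped one. Of the whole list, all 327 peaks on *Ezh2* KO SUZ12 and 50 of the 51 on *Ezh1/2* dKO SUZ12 also lay on WT SUZ12, so these counts of 0 follow largely from the rule. HA-tagged EZH1 expressed in *Ezh1/2* dKO cells overlapped 38 (0.399%, beside 2.49% of the whole list), and 28 overlapped a peak of the HA control in *Ezh1/2* dKO cells without the tag.

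The share on accessible chromatin was alike in the ATAC-seq lists of the 4 lines. A WT region overlapped 79.1% of *Ezh2* Y726D-only peaks (7538, interval 78.3 to 79.9%) and an *Ezh2* Y726D region 81.5% (7768, interval 80.7 to 82.3%). At the summit the shares were 63.1% and 65.5%. *Ezh2* KO and *Ezh1/2* dKO regions overlapped 78.9% and 80.1%. The lists cover between 22.7% and 24.3% of bases. Common peaks lay on WT ATAC regions in 96.8% and *Ezh2* R685C-only peaks in 75.5% of cases (78.9% and 57.0% at the summit). By whole peaks, the WT share was larger at stronger *Ezh2* Y726D-only peaks, from 75.2% at a -log10 p from 10 to 12 to 89.9% at 20 or more. At the summit the shares in these bins were closer, 61.2% and 65.5%.

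*Ezh2* Y726D-only peaks were mostly distal. By the start sites (TSS) of GENCODE genes on mm9, 16.7% of them lay within 1 kb of one (1589, interval 15.9 to 17.4%), and 35.2% within 5 kb (3352, interval 34.2 to 36.1%). Over the whole list, 32.3% lay within 1 kb, and at common peaks 46.5%. By summit, 15.1% were within 1 kb of a TSS, 5.13% in other exons, 36.8% in introns and 42.9% between genes. *Ezh2* R685C-only peaks had a like share within 1 kb (17.7%).

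The regions came partly in groups. Joined over gaps of up to 10 kb, they formed 6519 stretches, of which 4653 held a single peak, 1866 held 2 or more (4874 peaks together) and 116 held 5 or more (688 peaks). The largest, with 13, was chr6:100112930-100166424, which overlaps no protein-coding gene. Stretches of 11 lay at chr19:57190208-57222551 in *Ablim1*, an actin-binding LIM protein, and at chr1:137552417-137582256 in *Nav1*, a microtubule-associated protein of neurons, and one of 10 at chr4:116977705-117006472 in *Rnf220*, a ubiquitin ligase. In the next, with 9 each, were *Tns1* (tensin, of focal adhesions) and *Sfxn5* (a mitochondrial carrier). These spans also held peaks of the other mutant lines, counted together. There were 10 in the largest, 5 at *Ablim1*, 8 at *Nav1*, 7 at *Rnf220*, 14 at *Tns1* and 1 at *Sfxn5*. At chr9:62308862-62342707 in *Coro2b*, an actin-binding coronin, 8 *Ezh2* Y726D-only peaks were the only *Ezh2* Y726D peaks of the span, and the other mutant lines had none there.

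Chromosome 12 held few of the regions. It carried 104 *Ezh2* Y726D-only peaks (1.09%, interval 0.902 to 1.32%), though 977 peaks (2.39%) of the *Ezh2* Y726D list and 645 (4.24%) of the *Ezh2* R685C-only peaks lay there. Of the *Ezh2* Y726D peaks of chromosome 12, 10.6% were *Ezh2* Y726D-only, against 19.5% to 26.8% on the other autosomes (median 23.4%). The density was 0.858 per Mb, against 2.60 to 5.21. On chromosome X the share was 13.7% (72 peaks), and no *Ezh2* Y726D H3K27ac peak was listed on chromosome Y. The other mutant lines had few or none there either, with 0 in *Ezh1/2* dKO, 1 in *Ezh2* KO and 3 in *Ezh2* R685C.

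RNA from the *Ezh2* Y726D line also stood apart on this chromosome. Its 463 tested genes had a median log2 fold change of -0.30 against WT, -0.28 against *Ezh2* KO and -0.36 against *Ezh1/2* dKO, and 76.2% of them had a value below 0 against WT. The medians of the other autosomes against WT ran from -0.10 to 0.03. The 5 tested genes of chromosome Y had a median log2 fold change of -7.77 against WT. What part these values have in the low number of regions was not tested.

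**Figure D3:**
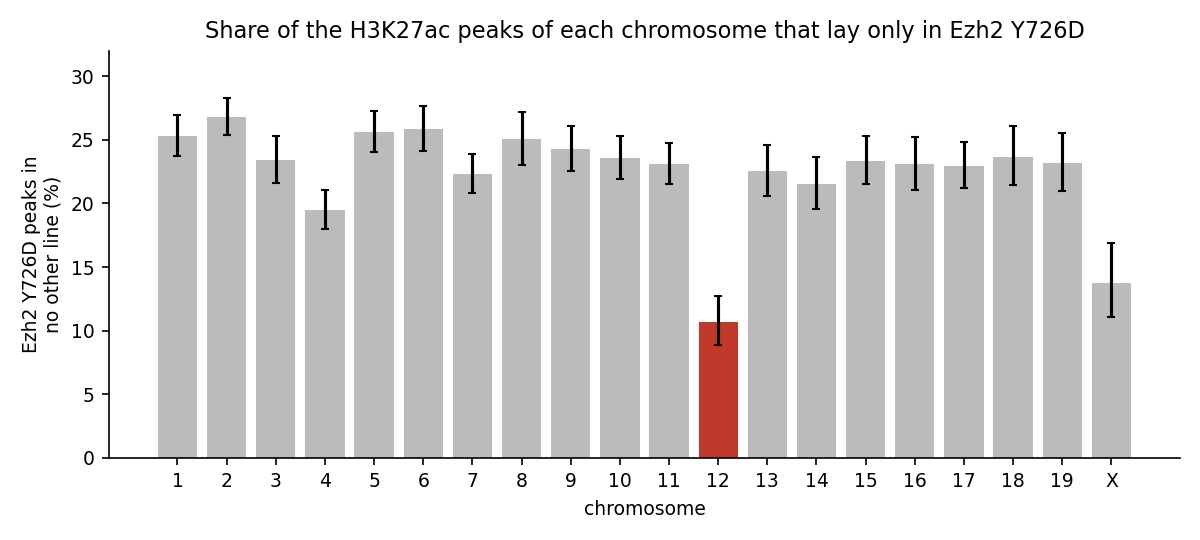
Share of the *Ezh2* Y726D H3K27ac peaks of each chromosome (%) that were *Ezh2* Y726D-only, with Wilson 95% intervals as bars. Chromosome 12 (10.6%) and chromosome X (13.7%) lie below the other autosomes (19.5% to 26.8%).

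The 10 peaks with the smallest p lay on WT H3K27me2 in every case and on WT H3K27me1 in none. The strongest, chr10:76470200-76471785, had a -log10 p of 42.8 and an 11.3-fold enrichment and lies between genes, 2955 bp from the TSS of *Gm10787*. The next, chr9:43668628-43670021 (37.1), is also intergenic, and its nearest protein-coding TSS is that of *Pvrl1*, the adhesion molecule nectin-1, at 115969 bp. It belongs to a stretch of 9 *Ezh2* Y726D-only peaks. At chr11:5966041-5968435 (37.0) the peak covers an annotated TSS of *Camk2b*, a calcium/calmodulin-dependent kinase, and also overlaps a WT H3K27me3 peak.

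Promoters and gene bodies made up most of the remaining strong peaks. At chr5:123592893-123594026 (-log10 p 34.4) the peak covers a TSS of *Setd1b*, a methyltransferase of histone H3 lysine 4, with its summit in an intron. The peak at chr7:31240094-31240873 (34.4) has its summit in an exon of *Kirrel2*, an adhesion protein of the nephrin family, and is the one of the 10 that is not on a WT ATAC region. The peak at chr2:163317511-163318917 (33.9) covers a TSS of *R3hdml* with its summit in an exon. Those at chr10:77788251-77789772 and chr2:125530893-125531800 have summits in introns of *Agpat3*, an acyltransferase of phospholipid synthesis, and of *Shc4*, a signalling adaptor. The peak at chr3:69401416-69402635 has its summit in an intron of *B3galnt1*, a glycosyltransferase, 148 bp from a TSS. The last, chr4:62551190-62552491, is intergenic, 74116 bp from *Zfp618*.

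RNA-seq values did not enter the rule. The peaks were, however, required in the same *Ezh2* Y726D line and were chosen with earlier results of these data known. The 8 libraries, 2 each of the *Ezh2* Y726D, WT, *Ezh1/2* dKO and *Ezh2* KO lines, held between 3604123 and 5181553 reads over genes, and no RNA-seq of *Ezh2* R685C was used. Nothing in the labels says whether the 2 libraries of a line came from separate cultures, so the tests measure the spread between these libraries. *Ezh2* was at 598 and 546 normalized counts in WT, 1.05 and 0.968 in *Ezh2* KO, 0.824 and 1.78 in *Ezh1/2* dKO and 422 and 613 in *Ezh2* Y726D, where a point mutation leaves the transcript. *Ezh1* was at 14.01 to 24.1 in *Ezh1/2* dKO and *Ezh2* Y726D and at 227 to 378 in WT and *Ezh2* KO. The targeted genes thus matched the labels. In bulk RNA, fewer cells expressing a gene and less RNA per cell cannot be told apart.

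Of the tested genes near *Ezh2* Y726D-only peaks, 4.19% had higher RNA in *Ezh2* Y726D than in WT, beside 1.67% of all genes tested. A TSS within 5 kb of an *Ezh2* Y726D-only peak was found for 2939 annotated genes, of which 2282 were in the count table and 1981 had a mean normalized count of at least 5 and were tested. Of those, 83 (4.19%) were called higher than in WT and 14 (0.707%) lower, at an adjusted p under 0.1 by limma and a change of at least 2-fold. Over all 13585 genes tested and placed, 1.67% were called higher and 1.05% lower. Of the 83 higher genes, 49 were also called higher in *Ezh1/2* dKO than in WT, and 1 in *Ezh2* KO. Just 1 of the 83 was called higher in *Ezh2* Y726D than in *Ezh1/2* dKO. Against WT, their median log2 fold change was 1.81 in *Ezh2* Y726D, 1.60 in *Ezh1/2* dKO and 0.56 in *Ezh2* KO. Most of these rises were thus shared with a line that, by the rule, has no listed H3K27ac peak overlapping these regions. The *Ezh1/2* dKO list held 17618 peaks, and acetylation too weak to be listed was not examined. The median log2 fold change was 0.16 near *Ezh2* Y726D-only peaks and -0.01 over all genes, and 62.6% and 49.1% of values were above 0. The count called higher was 30 and 31 without the first or second *Ezh1/2* dKO library and 50 without the second *Ezh2* Y726D library. It was 8 when WT and *Ezh2* Y726D were fitted alone. The count called lower was 42 without the first *Ezh2* Y726D library.

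Many of these genes were also near PRC2 sites. The rule kept the peaks off WT SUZ12, but 427 of the tested genes also had such a SUZ12 peak in the same 5 kb. Of these, 41 (9.60%) were called higher, against 92 of 1517 (6.06%) with a SUZ12 peak and no *Ezh2* Y726D-only peak. All genes with a SUZ12 peak gave 6.84% higher and 1.08% lower. Of the 1554 genes with an *Ezh2* Y726D-only peak and no SUZ12 peak, 42 (2.70%) were called higher and 10 lower, against 52 (0.516%) and 111 of 10087 with neither. All genes without SUZ12 gave 0.807% higher and 1.04% lower.

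The shares were larger near stronger and more numerous peaks, a difference that was not tested. A peak of -log10 p of 20 or more lay within 5 kb of 117 tested genes, of which 12 (10.3%) were called higher. With 3 or more *Ezh2* Y726D-only peaks, 20 of 176 (11.4%) were, with 2 peaks 3.88% and with 1 peak 3.40%. Where a peak common to the 4 mutant lines also lay within 5 kb, the share was small. Of those 622 genes, 6 (0.965%) were called higher and 7 (1.13%) lower, beside 1.67% and 1.05% of all genes. Of genes near an *Ezh2* R685C-only peak and no *Ezh2* Y726D-only peak, 5 of 3467 (0.144%) were called higher and 44 (1.27%) lower. Of 1254 genes near a peak on WT H3K27me2, 3.51% were called higher, and of 727 near a peak off it, 5.36%. The group on H3K27me2 is thus not the one with the larger share of rises.

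**Figure D4:**
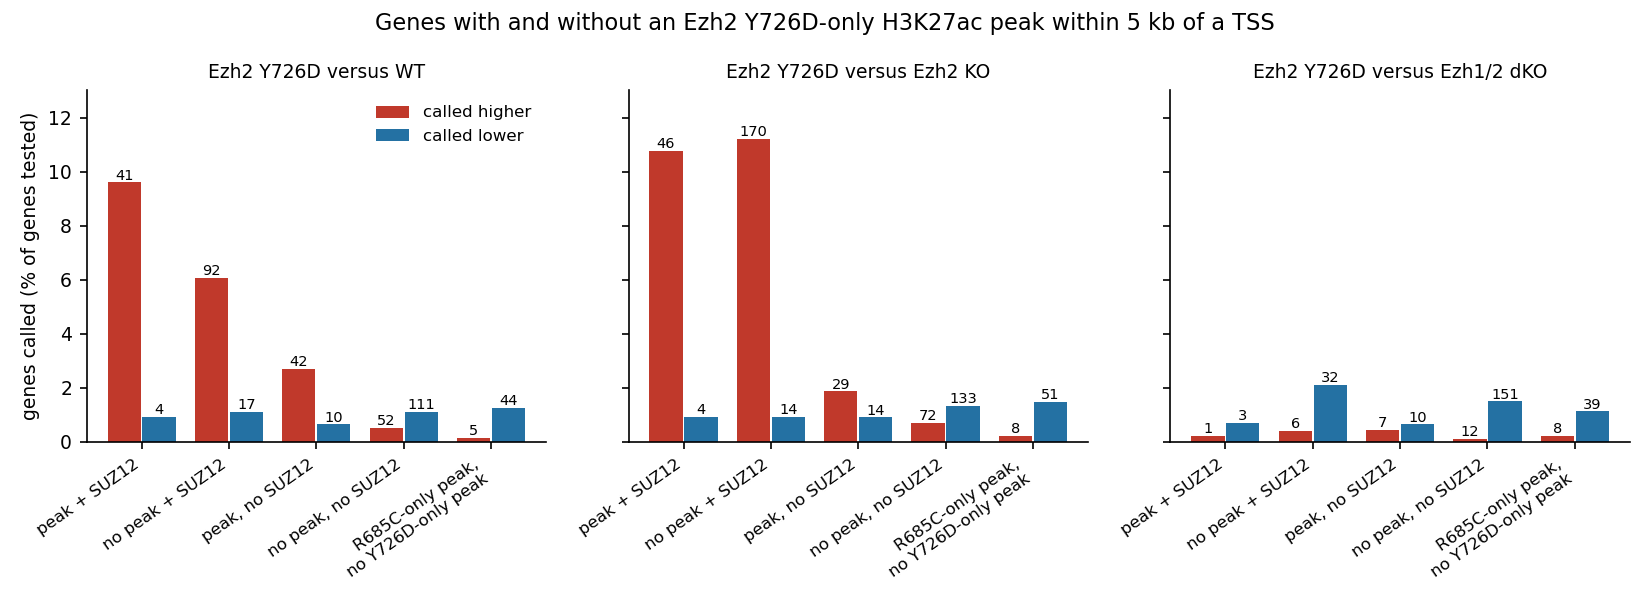
Share of tested genes (%) called higher or lower in *Ezh2* Y726D against *Ezh1/2* dKO, *Ezh2* KO and WT (the right, middle and left panels), for genes with or without an *Ezh2* Y726D-only peak (peak) and a WT peak of SUZ12 within 5 kb, with the number of genes over each bar. Against WT, 9.60% of genes with both and 0.516% of genes with neither were called higher.

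The largest rise was at a homeobox gene, *Hoxa10*. Of the 25 genes that the naming rule gave and that were called against WT, 5 (*Hoxa10*, *Fgf15*, *Col4a1*, *Col4a2* and *Ezh1*) stayed called against WT under every alternative that could be fitted for them. *Hoxa10*, a homeobox factor of posterior body patterning with an *Ezh2* Y726D-only peak 2596 bp from a TSS, was at 2.67 and 0 normalized counts in WT, 5.23 and 0 in *Ezh2* KO, 226 and 223 in *Ezh1/2* dKO and 424 and 493 in *Ezh2* Y726D. Both lines without H3K27 methylation were far above both others. From 916 reads against 2, the ratio to WT was 406 with an exact interval of 112 to 3361 for counting error (limma adjusted p = 0.0057). *Hoxa3* was at 0 and 0.963 in WT, 0 and 1.94 in *Ezh2* KO, 14.8 and 21.3 in *Ezh1/2* dKO and 24.96 and 7.83 in *Ezh2* Y726D. *Hoxd8* was at 0 and 0.963 in WT, 2.09 and 0.968 in *Ezh2* KO, 18.96 and 16.9 in *Ezh1/2* dKO and 21.4 and 5.59 in *Ezh2* Y726D. Their ratios to WT were 31.1 (5.22 to 1261) and 25.7 (4.27 to 1051), and the lower of the *Ezh2* Y726D libraries was still above WT. The 3 genes also lie within 5 kb of SUZ12 peaks of WT cells, and the counting did not use strand, so antisense transcripts of the *Hox* clusters cannot be told apart from them.

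Other genes rose from few or no reads. *Olig3*, a basic helix-loop-helix factor of the dorsal neural tube with 2 peaks near its TSS, was at 0 in both WT libraries, 0 and 1.94 in *Ezh2* KO, 16.5 and 14.2 in *Ezh1/2* dKO and 16.0 and 24.6 in *Ezh2* Y726D, at least 11.8-fold higher than a floor of 3 reads over the WT libraries. *Meox1*, a homeobox gene of somites with 3 peaks, was at 0 in both WT libraries, 2.09 and 7.74 in *Ezh2* KO, 5.77 and 5.33 in *Ezh1/2* dKO and 6.24 and 15.7 in *Ezh2* Y726D, at least 6.21-fold above the same floor. For *Fgl2*, which encodes a secreted fibrinogen-like protein, the values were 0 and 1.93 in WT, 0 in both *Ezh2* KO libraries, 14.01 and 24.9 in *Ezh1/2* dKO and 17.8 and 20.1 in *Ezh2* Y726D, a ratio of 16.9 to WT (4.36 to 144). *Meox1* and *Fgl2* have no WT SUZ12 peak within 5 kb.

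*Misp* and *Fgf15* were highest in *Ezh2* Y726D. *Misp*, an actin-binding protein of spindle positioning whose TSS is covered by an *Ezh2* Y726D-only peak, was at 4.002 and 11.6 in WT, 12.55 and 15.5 in *Ezh2* KO, 19.8 and 29.3 in *Ezh1/2* dKO and 77.6 and 83.9 in *Ezh2* Y726D. Against WT it rose by 3.37 ± 0.52 (SE) on the log2 scale (limma adjusted p = 0.0208), has 3 peaks within 5 kb and has no WT SUZ12 peak within that distance. Against *Ezh1/2* dKO its log2 difference was 1.70 ± 0.52 with an adjusted p of 0.191 (limma), which misses the threshold, though the libraries did not overlap. *Fgf15*, an FGF family hormone, has 4 peaks within 5 kb and, unlike *Misp*, also a WT SUZ12 peak within that distance. It was at 16.0 and 7.70 in WT, 24.05 and 25.2 in *Ezh2* KO, 33.8 and 35.5 in *Ezh1/2* dKO and 111 and 115 in *Ezh2* Y726D, a log2 fold change of 3.23 ± 0.41 against WT (limma adjusted p = 0.0113) and 1.68 ± 0.41 against *Ezh1/2* dKO (adjusted p = 0.109).

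The basement membrane collagen genes *Col4a1* and *Col4a2* start next to each other on opposite strands and share their 3 *Ezh2* Y726D-only peaks. Both also have a WT SUZ12 peak within 5 kb. *Col4a1* was at 147 and 80.9 in WT, 117 and 61.9 in *Ezh2* KO, 896 and 659.7 in *Ezh1/2* dKO and 718 and 954 in *Ezh2* Y726D. *Col4a2* was at 28.0 and 19.3 in WT, 12.55 and 14.5 in *Ezh2* KO, 150.02 and 118.98 in *Ezh1/2* dKO and 138 and 158 in *Ezh2* Y726D. They rose by log2 fold changes of 2.91 ± 0.36 and 2.62 ± 0.33 against WT (limma adjusted p = 0.0102 and 0.0113), with *Ezh1/2* dKO and *Ezh2* Y726D overlapping. A region listed only in *Ezh2* Y726D was thus next to genes whose RNA in *Ezh1/2* dKO overlapped that in *Ezh2* Y726D.

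The remaining rises named by the rule were *Arhgap22* and *Acpp*, and *B3galnt1* as the gene of one of the strongest peaks. *Arhgap22*, a GTPase-activating protein, was at 2.67 and 5.78 in WT, 14.6 and 21.3 in *Ezh2* KO, 33.8 and 34.6 in *Ezh1/2* dKO and 65.1 and 28.0 in *Ezh2* Y726D. *Acpp*, prostatic acid phosphatase, was at 5.34 and 3.85 in WT, 9.41 and 27.1 in *Ezh2* KO, 63.5 and 77.2 in *Ezh1/2* dKO and 25.9 and 66.0 in *Ezh2* Y726D, and *B3galnt1* at 180.1 and 220.5 in WT, 283 and 237 in *Ezh2* KO, 352 and 308 in *Ezh1/2* dKO and 506 and 359 in *Ezh2* Y726D. *B3galnt1* was called higher than in WT (log2 fold change 1.09 ± 0.22, limma adjusted p = 0.048), and it alone of the nearest coding genes of the 10 strongest peaks was. *Camk2b* had a log2 fold change of 0.29, *Setd1b* of 0.81, *Kirrel2* of 0.61, *Pvrl1* of 0.81, *Agpat3* of 0.65, *R3hdml* of 1.76 and *Zfp618* of 0.53, and these missed the threshold against WT. *Shc4* was too low to be tested, and *Gm10787* was not matched to the count table.

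The falls were fewer. *Ezh1* itself, deleted in this line, has 2 *Ezh2* Y726D-only peaks near it and showed the lowest value (log2 fold change -3.84 ± 0.35, limma adjusted p = 0.0023). *Col26a1*, a collagen gene, was at 167 and 134 in WT, 111 and 128 in *Ezh2* KO, 159 and 129.6 in *Ezh1/2* dKO and 22.3 and 5.59 in *Ezh2* Y726D. *Mst1*, which encodes macrophage-stimulating protein, was at 46.7 and 67.4 in WT, 68.0 and 89.0 in *Ezh2* KO, 46.2 and 54.2 in *Ezh1/2* dKO and 7.13 and 3.36 in *Ezh2* Y726D. Both were low in *Ezh2* Y726D alone. So were *Pdzd7*, a stereocilia scaffold protein, at 6.24 and 6.71 against 28.0 to 117 in the other lines, and *Vwf*, von Willebrand factor, at 11.6 and 12.3 against 34.5 to 54.9. *Prdm1*, the repressor BLIMP1 of germ cell specification, with 4 peaks near its TSS, was at 251 and 250.3 in WT, 350.3 and 291 in *Ezh2* KO, 143 and 58.6 in *Ezh1/2* dKO and 105 and 49.2 in *Ezh2* Y726D. *Ap3b2* (a neuronal adaptor subunit), *Ttc25* (a protein of motile cilia), *Akap7* (an anchor of protein kinase A) and *Bahcc1* fell by 2.41, 2.41, 2.15 and 1.60 on the log2 scale.

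**Figure D5:**
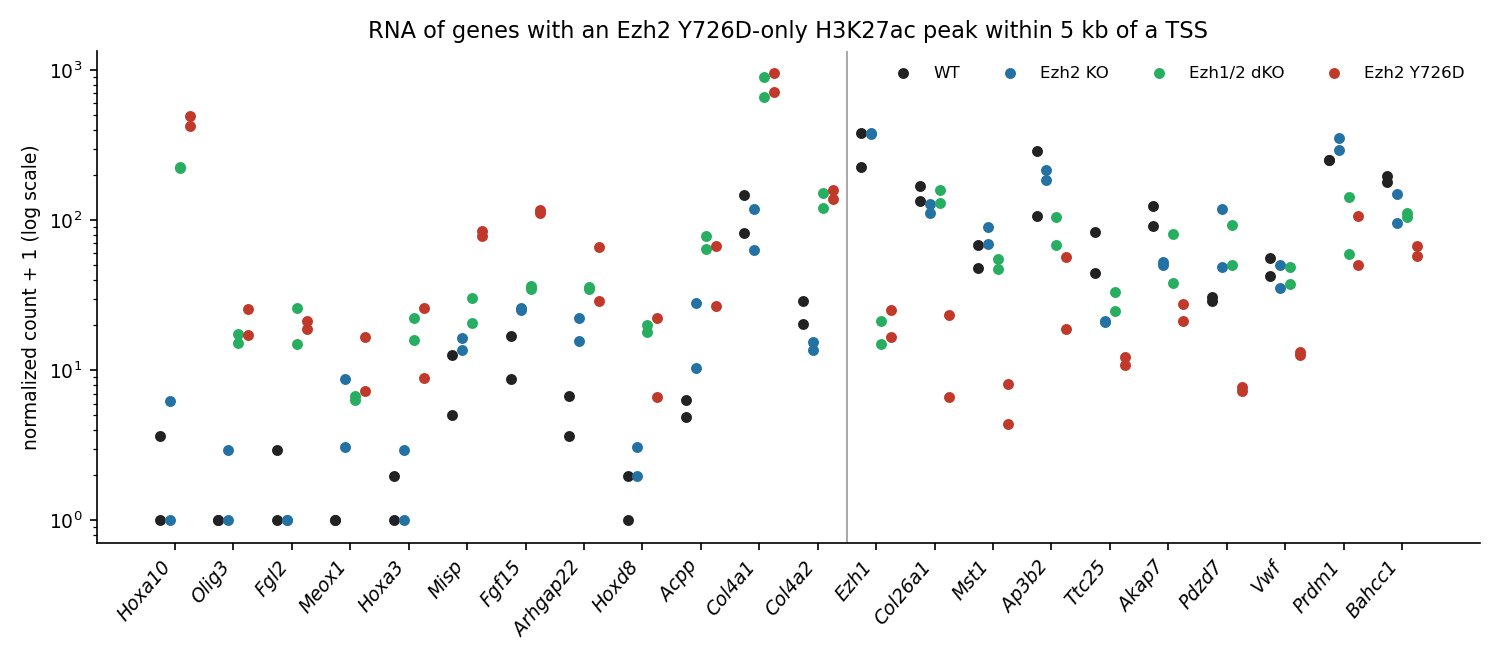
Normalized count plus 1 (log axis) of each RNA-seq library for the 10 largest rises, *Col4a1* and *Col4a2* (left of the line) and the 10 largest falls (right) among genes with an *Ezh2* Y726D-only peak within 5 kb, 2 points a line. *Misp* and *Fgf15* are highest in *Ezh2* Y726D, *Col4a1* and *Col4a2* are alike in *Ezh1/2* dKO and *Ezh2* Y726D, and *Col26a1* and *Mst1* are low in *Ezh2* Y726D alone.

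Against *Ezh2* KO, 75 genes near *Ezh2* Y726D-only peaks (3.79%) were called higher and 18 (0.909%) lower, beside 2.33% and 1.21% of all genes. With a SUZ12 peak nearby, the share called higher was 10.8% with an *Ezh2* Y726D-only peak and 11.2% without one. Without SUZ12 it was 1.87% and 0.714%. *Camk2b* was called here, with a log2 fold change of 1.43 (limma adjusted p = 0.0732) from 214 and 99.7 in *Ezh2* KO to 472 and 330 in *Ezh2* Y726D. The count higher was 22 without either *Ezh2* KO library, 37 and 36 without the first or second *Ezh1/2* dKO library and 29 without the second *Ezh2* Y726D library. The count lower was 84 without the first *Ezh2* Y726D library.

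Against *Ezh1/2* dKO, the other line without H3K27 methylation, few genes differed near the peaks. Called higher were 8 (0.404%) and lower 13 (0.656%), beside 0.191% and 1.44% of all genes. This comparison shares its *Ezh2* Y726D libraries with the ones above. Among the higher genes, given after their values were seen, were *Setd1b*, *Ddx58* (the RNA sensor RIG-I), *Rarg* (retinoic acid receptor gamma), *Cdc42ep4*, *Mapkapk3*, *Def6* and *1700123I01Rik*. *Setd1b* was at 150.02 and 139 in *Ezh1/2* dKO and 349.5 and 284 in *Ezh2* Y726D (log2 fold change 1.12 ± 0.26, limma adjusted p = 0.0921), and at 144 to 223 in WT and *Ezh2* KO. It is the gene with one of the 10 strongest peaks over its TSS. *Ddx58* was at 243 and 171 in *Ezh1/2* dKO, 646 and 663 in *Ezh2* Y726D and 426 and 562 in WT. The count of 8 was 0 without either *Ezh1/2* dKO library and 14 without the first WT library, and 62 genes were called lower without the first *Ezh2* Y726D library. At an unadjusted p under 0.05 and 2-fold, 44 genes near the peaks (2.22%) were higher with all libraries, beside 0.861% of all genes, and 49 (2.47%) and 30 (1.51%) without the first or second *Ezh1/2* dKO library, beside 1.00% and 0.611% (limma). With all libraries, edgeR called 9 near the peaks and 26 over all genes, and DESeq2 20 and 54.

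Among lists of marker genes, the pluripotency genes with *Ezh2* Y726D-only peaks did not pass the test. Of 20 pluripotency genes tested, 5 had such a peak within 5 kb (*Nanog*, *Tbx3*, *Zfp42*, *Prdm14* and *Nr5a2*), none of the 5 was called, and *Dppa3* was the 1 of the 20 called lower. *Nanog* was at 1009.8 and 846 in WT and 806 and 848 in *Ezh2* Y726D. The summed counts of the list ran from 24716 to 27800.5 in WT and 23219.5 to 26133 in *Ezh2* Y726D, and no gene of the list was under 1 in every library. Of the formative and primed pluripotency genes, 8 of 11 had a peak (*Fgf5*, *Otx2*, *Dnmt3a*, *Dnmt3b*, *Tcf15*, *Zic2*, *Foxd3* and *Sox4*), and none of the 11 was called against WT. Over all genes tested, 14.6% had a peak within 5 kb, and the difference between lists was not tested. *Dnmt3b*, a DNA methyltransferase, was called against *Ezh2* KO (log2 fold change 1.60, limma adjusted p = 0.0573).

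Lists of other lineages moved in part. Of 12 primitive endoderm genes tested, *Col4a1* and *Col4a2* were called higher and both had a peak, as did *Pdgfra* and *Hnf4a*, which were not called. The summed list ran from 2872 to 3520.4 in WT, 4254 to 4285 in *Ezh1/2* dKO and 3595 to 4768 in *Ezh2* Y726D, and *Foxa2* was under 1 in every library. Of 13 trophectoderm and simple epithelium genes tested, *Gata3*, *Krt8*, *Krt18* and *Tfap2a* were called higher. *Gata3* and *Krt8* had a peak, as did *Gata2* and *Eomes*, which were not called. *Gata3*, a trophoblast GATA factor, was at 50.7 and 21.2 in WT, 115.01 and 61.0 in *Ezh2* KO, 193 and 135 in *Ezh1/2* dKO and 124 and 107 in *Ezh2* Y726D. *Krt8*, a simple epithelial keratin, was at 74.7 and 132 in WT, 180 and 252 in *Ezh2* KO, 237 and 359 in *Ezh1/2* dKO and 259 and 348 in *Ezh2* Y726D. The sum of this list ran from 754 to 1009.8 in WT, 1179 to 1359 in *Ezh2* KO, 1874 to 2027 in *Ezh1/2* dKO and 1388 to 1970.1 in *Ezh2* Y726D, so it was also high in *Ezh1/2* dKO. What part cells of these types have in the rises near *Ezh2* Y726D-only peaks was not tested.

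Of 32 Wnt, FGF and TGF-beta genes, 11 had an *Ezh2* Y726D-only peak within 5 kb, among them *Lefty1*, *Lefty2*, *Smad6*, *Smad7*, *Id1*, *Lrp5* and *Fgfr1*, and *Fgf15* was the only one of the 11 called. *Bmp4*, without a peak, was the other of the 31 tested that was called higher. Of the 15 germline genes tested, 3 (*Mael*, *Tex11* and *Brdt*) were called higher, none with a peak, and *Stk31* with a peak was not called. Of the streak and mesoderm genes, *T*, *Eomes*, *Fgf8* and *Msx2* had a peak and none of 6 tested was called. None of the 16 neural genes listed had one and none of 7 tested was called. None of the 12 genes of two-cell-like cells had one, and of the 9 tested, *Zscan4c* and *Zscan4d* were called lower (median log2 fold change of the list -1.73), with the reservation that these near-identical copies can share reads. Of the PRC2 genes, *Ezh1*, *Jarid2* and *Phf1* had a peak and *Ezh1* alone was called, and of the enzymes that acetylate, deacetylate or demethylate H3K27, 1 of 9 (the demethylase gene *Kdm6b*) had a peak and none was called.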

How the data were processed

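Peak lists and RNA-seq counts of mouse ESC lines were used, 1 list per line and target. For ChIP-seq and ATAC-seq, the authors mapped reads with Bowtie (mm9), discarded duplicates (Picard) and used MACS2 for peaks. The deposited lists give each peak's -log10 p and its fold enrichment, a ratio to background, as the authors' caller wrote them. Lists of H3K27ac, SUZ12 and H3K27me3 have p of at most 1e-10, and those of H3K27me1, H3K27me2 and ATAC-seq p of about 0.1, as broad regions. The HA lists hold positions, which the authors deposited without a score. The study's spike-in does not enter the lists. The depth of the lists is unknown. Some lists leave out whole chromosomes, and their shares use only the chromosomes they hold.

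For RNA-seq, the authors counted TopHat alignments per RefSeq gene without strand (HTSeq-count) and deposited DESeq2-normalized counts, a signal per gene and library that is the read count divided by a size factor. All values (100%) were whole multiples of 1 read within 0.001, so reads were recovered for edgeR 4.0.16 and DESeq2 1.42.0. The deposited fold changes and p-values of the authors' comparisons and copies of tables were not used.

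The peaks and the lists of genes and strings were chosen with earlier results of these data known. Overlaps (bedtools 2.31.1, pysam 0.24.0, Python 3.11.15) needed 1 bp, and shares have Wilson 95% intervals. GENCODE genes of mm9 were placed by TSS and 854 symbols were matched by a synonym. RNA was fitted with limma 3.58.1 in R 4.3.3 on log2(normalized count + 1), so fold changes of low genes are understated, with all 8 libraries and 13872 of 18055 genes with a mean of at least 5. P-values were adjusted over all genes (Benjamini-Hochberg). Genes with at most 3 reads in WT are given as a ratio of reads or against a floor of 3 reads over the group. Named are the 10 strongest peaks and their nearest coding genes, the 10 largest rises and falls called with both libraries beyond both of WT, and listed genes with a peak within 5 kb. The fit and the overlaps were tested on simulated data. Replicate numbers did not pair libraries. One named result is not reported here. The alternatives were other overlap and strength rules, pseudocounts, filters, scalings, tools, blocks and left-out libraries.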

Additional observations from a re-analysis of the deposited data

Results flagged for a closer look

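For 6 genes lower in *Ezh2* Y726D and with an *Ezh2* Y726D-only peak within 5 kb, the change against WT in *Ezh2* Y726D differed from that in *Ezh1/2* dKO, by the direct test of *Ezh2* Y726D against *Ezh1/2* dKO (limma, adjusted p under 0.1) in genes also called against WT. *Col26a1* was lower in *Ezh2* Y726D by a log2 difference of -3.54, *Pdzd7* by -3.19 and *Mst1* by -3.10. *Vwf*, von Willebrand factor, differed by -1.72, *Vegfa*, the vascular growth factor, by -1.61 and *Brpf3*, a subunit of histone acetyltransferase complexes, by -1.13. *Vegfa* was at 142 and 184 normalized counts in *Ezh1/2* dKO and 62.4 and 43.6 in *Ezh2* Y726D, and *Brpf3* at 300.04 and 298 and at 120 and 153. These genes were lower in both *Ezh2* Y726D libraries than in every library of the 3 other lines.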

How the results depend on the processing

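*Ezh2* Y726D-only peaks numbered 386 among peaks with p of at most 1e-20 and 2557 when all H3K27ac lists were shortened to equal length (17618). In the same order, 40.7% and 40.9% lay within 5 kb of a TSS, 89.9% and 89.2% on WT ATAC regions, 75.8% and 69.2% on WT H3K27me2, 4.15% and 2.66% on WT H3K27me3 and 0.259% and 0.704% on chromosome 12. Without a peak of another line within 1 kb, 33.7% lay near a TSS, 81.4% on ATAC and 3.43% on H3K27me3. With an overlap of at least 50% of the peak counted as shared, 81.2% lay on ATAC and 72.4% on H3K27me2. At the summit (an alternative chosen after seeing the data) the shares were 63.1% on ATAC, 61.2% on H3K27me2 and 1.88% on H3K27me3. By whole peaks, 16.7% lay within 1 kb of a TSS.

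Against WT, 83 genes near *Ezh2* Y726D-only peaks were called higher and 14 lower. The counts were 53 and 8 with no filter on low values, 8 and 1 with only the 2 lines compared and 45 and 8 within 1 kb, and ran from 30 to 74 and from 7 to 42 with single libraries left out. Against *Ezh2* KO (75 and 18) they were 36 and 11 with only the 2 lines and 38 and 10 within 1 kb, and ran from 22 to 99 and from 4 to 84. Against *Ezh1/2* dKO, the 8 higher became 4 with a pseudocount of 0.5, 3 with no filter, 4 with a mean of at least 20, 3 with upper-quartile rescaling, 20 with quantile normalization and 20 with DESeq2, and ran from 0 to 14, the 0 standing beside 49 and 30 genes at an unadjusted p under 0.05 (limma). The 13 lower became 6 with only the 2 lines, 22 with DESeq2 and 8 within 1 kb, and ran from 1 to 62. Leaving a library out leaves a lone sample, which is assumed to vary like the other lines.

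The share called higher near *Ezh2* Y726D-only peaks was above that of all genes in 20 of 20 fits against WT and against *Ezh2* KO and in 18 of 20 against *Ezh1/2* dKO. With the replicate number as a block, counts were 70 and 11 against WT, 60 and 16 against *Ezh2* KO and 6 and 9 against *Ezh1/2* dKO. By the rule that every pair must exceed 0.1, the numbers did not pair the libraries: deviations of same-numbered libraries correlated at 0.22, 0.24 and 0.29 among the 3 mutant lines and at -0.07, -0.14 and -0.41 between WT and these lines. With a crossed block (WT numbers exchanged, chosen after seeing the data), counts were 147 and 30, 137 and 49, and 26 and 39. Over the 65 named genes and 1217 alternative values, 0 reversed among called genes, 107 lost the call and 6 gained it. The cause of these differences was not tested. The depth of the peak lists is unknown and limits every count of *Ezh2* Y726D-only peaks.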
